A study of Homo sapiens with 9 samples.

Results

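The regions described here are peaks of histone H3 lysine 27 acetylation (H3K27ac) that appear in DND-41 cells treated with ACBI-1 and have no counterpart nearby in vehicle-treated cells. DND-41 is an established line of human T-cell acute lymphoblastic leukemia. The members are the peaks of the ACBI H3K27ac list with more than 1 kb between them and the closest peak of the DMSO H3K27ac list, on hg19. This left 6567 of the 52967 ACBI peaks, which is the 12.4% that the rule itself sets, and 183634 peaks stand in the 5 lists of the series together. They are called isolated below. The positions of the DMSO H3K27ac peaks chose the members, so the number of isolated peaks, their gap to DMSO and their low overlap with marks that DMSO H3K27ac already covers are descriptions and were not tested.

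The tested cells had received 100 nM ACBI-1 and were profiled for H3K27ac (ab4729, Abcam). The vehicle cells had received DMSO and were profiled with the same antibody. BRG1, RUNX1 and H3K4me3 were profiled in DND-41 cells whose labels name no treatment. No duration of treatment is given. The assay for H3K27ac was CUT&RUN, in which an antibody directs a protein A/G-micrococcal nuclease fusion to its target and the released DNA is sequenced. The control library for RUNX1 is labelled as input and the other controls as IgG. The lists may therefore not all come from the same assay. Each target and condition is 1 library of a single cell line, so no difference below could be checked against replicates, and p-values are not printed. Intervals in parentheses are exact 95% intervals over peaks (Clopper-Pearson for shares, order statistics for medians). They cover counting error only, and neighbouring peaks are not independent.

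H3K27ac is laid down by the acetyltransferases p300 and CBP and marks active promoters and enhancers. BRG1 (SMARCA4) is one of the ATPases that drive the SWI/SNF complexes, which move nucleosomes and keep enhancer DNA open. ACBI-1 is a degrader that links SMARCA2, SMARCA4 and PBRM1 to the VHL ubiquitin ligase. RUNX1 is a DNA-binding transcription factor of blood and T-cell development, and H3K4me3 marks mainly active promoters. Loss of SWI/SNF activity is known to lower acetylation at enhancers in several cell types.

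Gained sites were the minority direction. While 6567 ACBI peaks lay more than 1 kb from DMSO H3K27ac, 46154 of the 90495 DMSO peaks (51.0%) lay more than 1 kb from any ACBI peak. These isolated DMSO peaks serve below as the mirror image of the gained set, chosen by the same gap with the lists exchanged. The isolated ACBI peaks covered 3.08 Mb of the 70.8 Mb in the ACBI list, and the isolated DMSO peaks covered 29.8 Mb of the 127 Mb in the DMSO list. The lists are not of equal length, so the larger DMSO list excludes more of the genome from the ACBI set than the reverse. Read depth is unknown, because the lists hold positions without counts or scores, and its part in these numbers was not tested. A peak gained here is one called in ACBI and not in DMSO, and signal below the calling threshold in DMSO cannot be told apart from none.

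Isolated ACBI peaks were narrow. Their median width was 370 bp (362 to 378), with quartiles of 226 and 621 bp. The other 46400 ACBI peaks had a median of 850 bp (840 to 860), and the isolated DMSO peaks one of 493 bp (488 to 498). Peaks near the smallest size in the list were common among them: 18.2% (17.3 to 19.2) of isolated ACBI peaks measured under 200 bp, against 5.54% (5.33 to 5.75) of the other ACBI peaks and 13.5% (13.2 to 13.9) of isolated DMSO peaks. At the wide end, 421 isolated ACBI peaks (6.41%, 5.83 to 7.03) reached 1 kb and 17 reached 2 kb. The 4757 ACBI peaks within 1 kb of DMSO H3K27ac that did not overlap it were of like size, with a median of 393 bp (380 to 404), and those that overlapped it had a median of 948 bp (936 to 959).

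**Figure D1:**
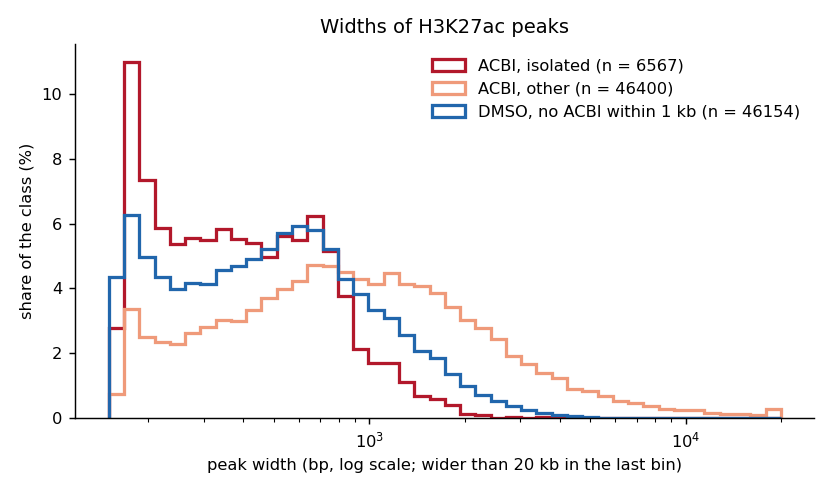
Distribution of peak width in base pairs (log scale) as a share of each class, for 6567 isolated ACBI peaks, the 46400 other ACBI peaks and 46154 DMSO peaks with no ACBI peak within 1 kb. The isolated ACBI peaks have the highest share near the lower limit of width and a median of 370 bp, against 850 bp for other ACBI peaks.

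The share of ACBI peaks that were isolated went down with width over 10 width classes of about equal size. In the narrowest class (164 to 224 bp) 30.4% (29.2 to 31.7) were isolated, in the sixth (755 to 974 bp) 9.88% (9.08 to 10.7), and in the widest (2722 bp or more) 0.0944% (0.0307 to 0.220), or 5 of 5296 peaks. The DMSO list showed the same order, with 80.6% isolated in its narrowest class (158 to 211 bp) and 3.32% in its widest (3015 bp or more). A wide peak is more likely to lie near a peak of the other list by its extent alone. How much of this order that gives was not tested.

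The 10 widest isolated peaks measured 2259 to 3642 bp, and 0 of them overlapped RUNX1, BRG1 or H3K4me3. The widest, at chr14:99650196-99653837, lay 1201 bp from a DMSO peak that was itself only 161 bp wide, so an ACBI peak of 3642 bp stood beside a DMSO peak near the smallest size in its list. The next, at chr4:130283839-130287323 (3485 bp), lay 9107 bp from a DMSO peak of 221 bp, and both of these DMSO peaks overlapped no ACBI peak. Others stood beside larger DMSO peaks that were still covered in ACBI. One at chr9:112851418-112854352 (2935 bp) lay 1581 bp from a DMSO peak of 2344 bp, and one at chr1:161023891-161026191 (2301 bp) lay 3592 bp from a DMSO peak of 2449 bp. In 6 of the 10, the nearest DMSO peak overlapped an ACBI peak. Only the site on chromosome 1 lay within 10 kb of RUNX1, at 7829 bp, while it and a site on the X chromosome (chrX:129054892-129057285, 2394 bp) lay within 10 kb of H3K4me3, at 7540 and 8459 bp. These regions could not be given gene names or printed as sequence, because the reference used here is of another build.

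Isolated peaks lay at a wide range of distances from DMSO H3K27ac. The median gap to DMSO H3K27ac was 3055 bp (2946 to 3153), with quartiles of 1675 and 6772 bp. There were 2167 peaks with a gap of 1 to 2 kb, 2210 with 2 to 5 kb, 1091 with 5 to 10 kb, 916 with 10 to 50 kb and 183 beyond 50 kb. The rule cuts a continuous range: 300 isolated peaks had gaps of 1001 to 1100 bp, and 332 excluded ACBI peaks had gaps of 901 to 1000 bp. The 2 members nearest to the limit, at chr1:41215369-41215746 (378 bp) and chr1:145313009-145313190 (182 bp), had gaps of 1001 bp. On the excluded side, the peaks at chr3:126161730-126162552 (823 bp) and chr11:71686356-71686556 (201 bp) had gaps of 1000 bp. Isolated DMSO peaks lay farther from the ACBI list, with a median of 6822 bp (6719 to 6920). The part of the unequal list lengths in this was not tested.

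Isolated peaks lay about as often beside acetylation that was kept in ACBI as any DMSO peak was kept. The nearest DMSO peak overlapped an ACBI peak in 2544 of 6567 cases (38.7%, 37.6 to 39.9), beside 40.9% (40.6 to 41.2) of all DMSO peaks. The share was 43.6% (41.5 to 45.7) for gaps of 1 to 2 kb and 33.8% (31.0 to 36.7) for gaps of 5 to 10 kb. For 53.3% of the members the nearest DMSO peak was an isolated one, with no ACBI peak within 1 kb of it, beside 51.0% of all DMSO peaks.

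**Figure D2:**
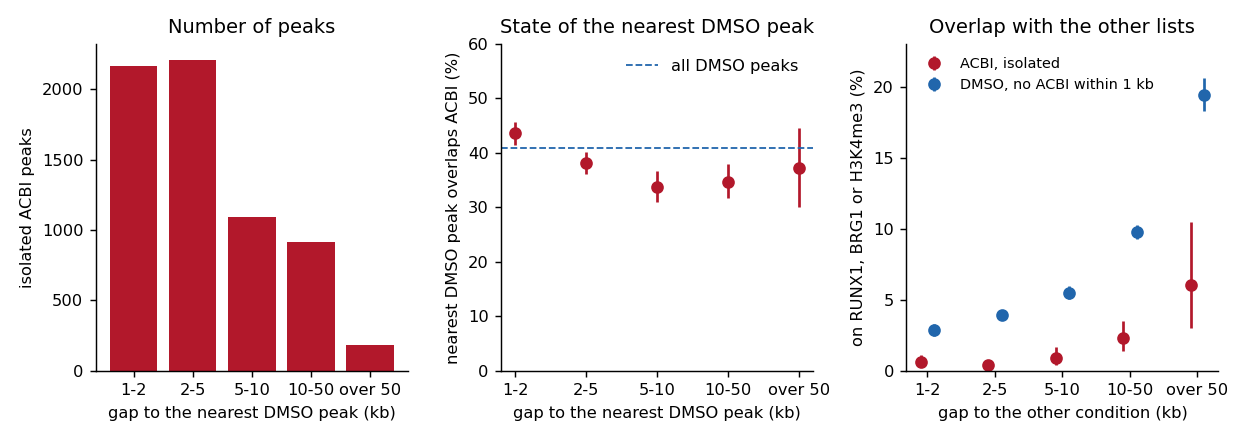
By gap to the nearest peak of the other condition in kb: the number of isolated ACBI peaks (left), the share whose nearest DMSO peak overlaps an ACBI peak with the share over all DMSO peaks as a dashed line (middle), and the share that overlaps a RUNX1, BRG1 or H3K4me3 peak in isolated ACBI and isolated DMSO peaks (right). Bars on points are exact 95% intervals over peaks; in the right panel the shares are highest beyond 50 kb in both sets, at 6.01% in ACBI and 19.4% in DMSO, and the lowest ACBI share is 0.407% at 2 to 5 kb.

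The peaks were isolated from DMSO H3K27ac, not from other ACBI H3K27ac. Another ACBI peak of any kind lay within 10 kb of 71.2% (70.1 to 72.3) of them, at a median distance of 4396 bp, compared with 81.2% (80.8 to 81.6) and 1984 bp for the other ACBI peaks. Another isolated peak lay within 10 kb of 31.7% (30.5 to 32.8). A peak of the same set lay within 10 kb of 78.4% (78.0 to 78.8) of the other ACBI peaks. For isolated DMSO peaks the share was 70.0% (69.6 to 70.4). Both of these sets are much larger, with 46400 and 46154 peaks. Isolated peaks had an isolated neighbour more often than the other ACBI peaks did, though for most of them the nearest ACBI peak was not isolated: the nearest ACBI peak was isolated for 30.6% (29.4 to 31.7) of isolated peaks and for 9.34% (9.08 to 9.61) of the other ACBI peaks, with 12.4% isolated in the whole list. In the mirror set, the nearest DMSO peak was isolated for 64.0% (63.6 to 64.4) of isolated DMSO peaks and for 33.4% (33.0 to 33.9) of other DMSO peaks. A peak near a DMSO peak may have neighbours near one too, so the rule itself could give part of this grouping. This was not tested.

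Chained by gaps of at most 10 kb, the members formed 5376 groups, of which 4488 were single peaks, 671 were pairs and 217 held 3 or more. The 217 groups together held 737 peaks. The group with the most members held 9 isolated peaks of 183 to 1961 bp over 40033 bp at chr6:151349560-151389592. ACBI H3K27ac covered 10979 bp there in 13 peaks and DMSO H3K27ac covered 3130 bp in 6 peaks, so the same place held a shorter called length in vehicle cells rather than none. The nearest RUNX1 and H3K4me3 peaks were 161753 and 161226 bp away.

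The next group in order, at chr10:103650259-103680169, held 7 isolated peaks over 29911 bp. It had no DMSO H3K27ac inside it, with the nearest 8141 bp away, and it enclosed 1 RUNX1 peak. A group of 7 at chr16:18516559-18550505 held 6073 bp of ACBI and 4045 bp of DMSO H3K27ac. Another group of 7 at chr2:40488222-40526623 held 6187 bp of ACBI and 1526 bp of DMSO H3K27ac. A group of 6 at chr6:17671985-17693995 held 2879 bp of ACBI H3K27ac, all of it in isolated peaks, and 623 bp of DMSO H3K27ac. None of these last 3 groups enclosed a RUNX1, BRG1 or H3K4me3 peak.

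The chromosomes did not contribute evenly. If isolated peaks were shared out as all ACBI peaks are, chromosome 4 would hold 266 and it held 406, a ratio of 1.53 (1.40 to 1.67). Chromosome 2 followed with 638 peaks against 526 expected (1.21, 1.13 to 1.30). The lowest ratios were 0.505 (0.436 to 0.582) on chromosome 19, with 178 peaks against 352 expected, 0.567 (0.479 to 0.665) on chromosome 22 and 0.634 (0.491 to 0.802) on X. The mirror set differed less in this respect on chromosome 4: 53.6% of its DMSO peaks were isolated from ACBI, against 51.0% over all chromosomes. On chromosomes 19 and 22 the share was low in both directions, with 39.3% and 40.2% of DMSO peaks isolated. On X 54.0% of DMSO peaks were isolated, and chromosome 20 had the lowest DMSO share, 39.0%, with an ACBI ratio of 1.12 (0.997 to 1.24).

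The order of chromosomes depended on whether the expectation came from peaks or from length. With the expectation from DMSO H3K27ac peaks, chromosome 4 was again highest at 1.52 and X was lowest at 0.554. By length from the first to the last peak, chromosome 4 came to 0.973, while chromosome 20 was highest at 2.04 (279 peaks against 137 expected) and X lowest among the autosomes and X at 0.186. Chromosome 4 thus had about as many isolated peaks as its length gives. It held few ACBI peaks in all, with 11.2 per Mb beside 48.1 per Mb on chromosome 19. Chromosomes 18 and 9 had 11.4 and 12.2 per Mb, with ratios of 1.15 and 1.03 by the ACBI expectation. Chromosomes 5 and 8 had 12.4 per Mb each, with ratios of 1.04 and 0.996. Chromosome 13 had 12.8 per Mb and a ratio of 1.17 (1.01 to 1.34). Among dense chromosomes, 22 and 17 had 56.2 and 36.3 per Mb, with ratios of 0.567 and 0.760. Chromosome 20 had 32.2 per Mb and a ratio of 1.12. X had 5.17 per Mb and a ratio of 0.634. Median widths of isolated peaks went from 304 bp on chromosome 15 to 433 bp on chromosome 21 among the autosomes and X. The median gap to DMSO ran from 2107 bp on chromosome 19 to 4957 bp on chromosome 4 among the same chromosomes.

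**Figure D3:**
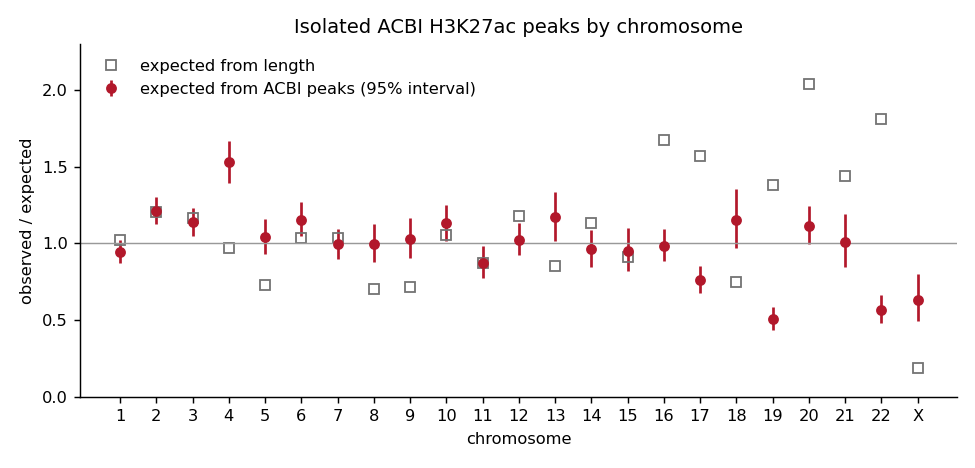
Observed over expected number of isolated ACBI peaks on the autosomes and X, with the expectation taken from all ACBI peaks (filled points, exact 95% intervals over peaks) or from chromosome length (open squares). Chromosome 4 is highest by the first measure at 1.53 and chromosome 20 by the second at 2.04; chromosome Y, with 6 isolated peaks, is left out.

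Part of the excess on chromosome 4 came from a single stretch. Among 356 bins of 5 Mb with at least 50 ACBI peaks, the share isolated had a median of 11.9% and quartiles of 8.15% and 15.8%. Bins stood far above this range on chromosomes 21 and 4. Between 20 and 25 Mb on chromosome 21, 57 of 99 ACBI peaks were isolated (57.6%, 47.2 to 67.5), and between 130 and 135 Mb on chromosome 4, 72 of 153 were (47.1%, 38.9 to 55.3). The third bin in order, 55 to 60 Mb on chromosome 6, had 32.1% (19.9 to 46.3). Without the bins on chromosomes 21 and 4 the ratio for chromosome 4 was 1.37. These bins, and the smaller ones that follow, were singled out after their values were seen.

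In bins of 1 Mb the highest number was 42 isolated peaks, between 23 and 24 Mb on chromosome 21. ACBI H3K27ac covered 53.9 kb there, of which 22.0 kb lay in isolated peaks, and DMSO H3K27ac covered 35.7 kb. The same bin held 3 RUNX1 peaks, 1 BRG1 peak and no H3K4me3 peak. Between 131 and 132 Mb on chromosome 4, 22 of 33 ACBI peaks were isolated, and the ACBI and DMSO lists covered 16.5 and 13.1 kb. Between 151 and 152 Mb on chromosome 6, which holds the group of 9 described above, 27 of 71 were isolated, with 59.3 kb of ACBI and 42.3 kb of DMSO H3K27ac.

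Of the 10 bins of 1 Mb with the most isolated peaks, 6 had the larger covered length in ACBI, where the ratio of ACBI to DMSO length over the genome was 0.556. The other 4 had the larger length in DMSO, among them 128 to 129 Mb on chromosome 2, with 146 kb of ACBI and 171 kb of DMSO H3K27ac. Isolated peaks are ACBI length without DMSO beside it by the rule, so this count is not independent of how the bins were picked. Outside the isolated peaks, ACBI H3K27ac was longer than DMSO H3K27ac in 2 of the 10 bins. These were 74 to 75 Mb on chromosome 4, with 36.3 kb of ACBI outside isolated peaks and 31.9 kb of DMSO, and 13 to 14 Mb on chromosome 20, with 266 kb of ACBI outside isolated peaks and 214 kb of DMSO.

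Few isolated peaks coincided with the transcription factor. RUNX1 overlapped 40 of 6567 isolated peaks (0.609%, 0.436 to 0.829), beside 19.1% of all ACBI peaks and 5.58% (5.37 to 5.79) of isolated DMSO peaks. The 4757 ACBI peaks that missed a DMSO peak by 1 kb or less were as poor in it, at 0.652% (0.443 to 0.924). The rule sets part of this, since most RUNX1 peaks lie inside DMSO H3K27ac. The count was also taken from the RUNX1 side, at sites with no H3K27ac peak nearby. It uses the same gap and is not independent of the rule. Of 2575 RUNX1 peaks more than 1 kb from DMSO H3K27ac, 45 (1.75%, 1.28 to 2.33) overlapped an ACBI peak, 40 of them an isolated one. Of 5788 RUNX1 peaks more than 1 kb from ACBI H3K27ac, 2852 (49.3%, 48.0 to 50.6) overlapped a DMSO peak. The called length away from the other list differed, at 3.08 Mb in isolated ACBI and 29.8 Mb in isolated DMSO peaks. Its part in these shares was not tested. The share that placement alone would give was not computed, so 1.75% cannot be read as low or high for such sites. The same limits hold for the counts of this kind for BRG1 and H3K4me3 below. RUNX1 was profiled in cells whose labels name no treatment, so any site it binds after ACBI-1 alone is missing from these counts.

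RUNX1 was also farther away in distance. The rule bears on this too, since it keeps isolated ACBI peaks more than 1 kb from DMSO H3K27ac. Of 19893 RUNX1 peaks, 2575 lay that far from DMSO H3K27ac and 5788 that far from ACBI H3K27ac. The part of the rule in the distances to RUNX1, BRG1 and H3K4me3 was not tested. The median distance to the nearest RUNX1 peak was 34349 bp (33323 to 35847) for isolated ACBI peaks and 22608 bp (22269 to 23005) for isolated DMSO peaks. Within 10 kb of RUNX1 lay 17.2% (16.3 to 18.2) of isolated ACBI peaks, 41.7% of all ACBI peaks and 29.2% (28.8 to 29.6) of isolated DMSO peaks. Width did not remove the difference: among peaks of 250 to 500 bp the shares were 17.9% for isolated ACBI and 27.9% for isolated DMSO peaks, and among peaks of 1 kb or more 16.6% and 37.5%. In isolated ACBI peaks the share stayed between 16.2% and 17.9% over the 4 width classes, while in isolated DMSO peaks it was higher in each wider class.

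The remodeler gave a like picture at lower numbers. BRG1 overlapped 11 isolated ACBI peaks (0.168%, 0.0836 to 0.300), beside 9.02% of all ACBI peaks and 1.94% (1.82 to 2.07) of isolated DMSO peaks. Within 10 kb of BRG1 lay 8.76% (8.08 to 9.47) of isolated ACBI peaks, 21.6% of all ACBI peaks and 13.4% (13.1 to 13.8) of isolated DMSO peaks. The median distance was 71505 bp (68597 to 75290) for isolated ACBI peaks and 57575 bp (56602 to 58575) for isolated DMSO peaks. Of 380 BRG1 peaks more than 1 kb from DMSO H3K27ac, 12 (3.16%, 1.64 to 5.45) overlapped an ACBI peak, whereas of 1458 more than 1 kb from ACBI H3K27ac, 968 (66.4%, 63.9 to 68.8) overlapped a DMSO peak.

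The promoter mark lay at more similar distances in both sets when the gap was 1 kb. H3K4me3 overlapped 27 isolated ACBI peaks (0.411%, 0.271 to 0.598), beside 17.9% of all ACBI peaks and 3.09% (2.93 to 3.25) of isolated DMSO peaks. Within 10 kb of H3K4me3 lay 17.9% (17.0 to 18.9) of isolated ACBI peaks, 34.9% of all ACBI peaks and 20.6% (20.2 to 20.97) of isolated DMSO peaks. The median distance was 35338 bp (33641 to 37006) for isolated ACBI peaks and 37344 bp (36770 to 37989) for isolated DMSO peaks. Among 592 H3K4me3 peaks more than 1 kb from DMSO H3K27ac, 28 (4.73%, 3.17 to 6.76) overlapped an ACBI peak. Of 2215 more than 1 kb from ACBI H3K27ac, 1518 (68.5%, 66.6 to 70.5) overlapped a DMSO peak.

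**Figure D4:**
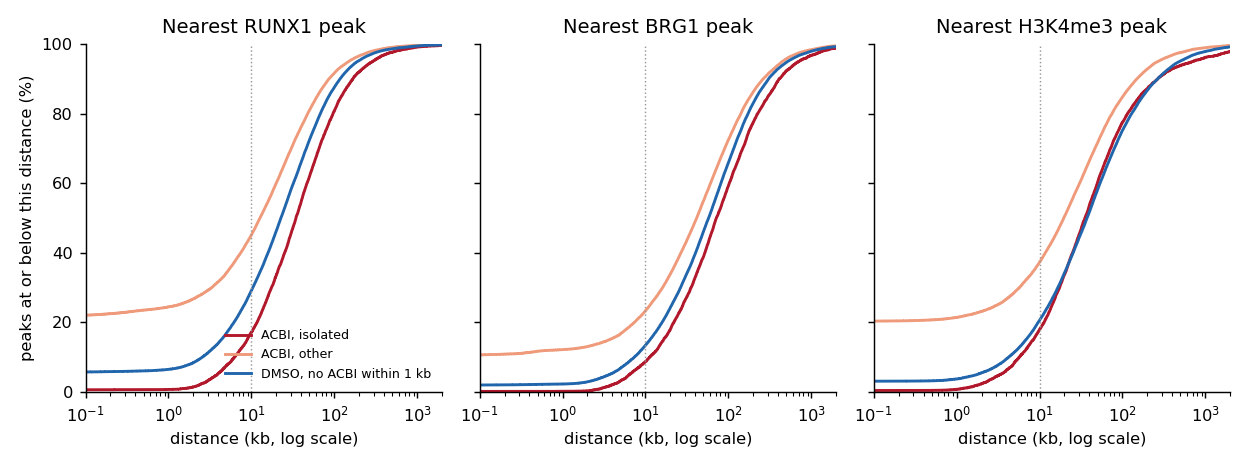
Cumulative share of peaks by distance in kb (log scale) to the nearest RUNX1, BRG1 and H3K4me3 peak, for isolated ACBI peaks, other ACBI peaks and DMSO peaks with no ACBI peak within 1 kb; the dotted line marks 10 kb. At 10 kb, 17.2%, 8.76% and 17.9% of isolated ACBI peaks have a RUNX1, BRG1 and H3K4me3 peak, against 29.2%, 13.4% and 20.6% of isolated DMSO peaks.

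The comparison with the mirror set was repeated with a wider gap and with lists of equal length, which leave unequal numbers and widths of isolated peaks. With a gap of more than 5 kb in both directions, 8.17% (7.06 to 9.40) of 2190 ACBI peaks and 23.1% (22.6 to 23.6) of 27241 DMSO peaks lay within 10 kb of RUNX1. With the DMSO list cut to its 52967 widest peaks, the length of the ACBI list, the shares were 19.9% (19.2 to 20.6) of 12155 ACBI peaks and 33.2% (32.5 to 33.9) of 18331 DMSO peaks. The median widths of these peaks were 410 bp in ACBI and 926 bp in DMSO, since only the widest DMSO peaks were kept. For H3K4me3 the shares were 9.36% (8.17 to 10.7) of ACBI and 14.4% (13.98 to 14.8) of DMSO peaks with the gap of 5 kb, and 20.1% (19.4 to 20.8) of ACBI and 22.2% (21.6 to 22.8) of DMSO peaks with lists of equal length. Most RUNX1 and H3K4me3 peaks lie within 1 kb of DMSO H3K27ac. A gap of 5 kb can thus take ACBI peaks out of the 10 kb window by the rule itself. It bears less on DMSO peaks, since more RUNX1 and H3K4me3 peaks lie away from ACBI H3K27ac. The part of the rule in the contrast at 5 kb was not tested, so that setting is not an independent repeat. The cut to equal length and the values for DMSO peaks under both settings were added after the data were seen.

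None of the 3 lists had a peak within 10 kb of 76.2% (75.1 to 77.2) of isolated ACBI peaks, beside 48.4% of all ACBI peaks and 63.6% (63.2 to 64.1) of isolated DMSO peaks. Within 100 kb of RUNX1 lay 80.8% (79.9 to 81.8) of isolated ACBI peaks, 90.3% of all ACBI peaks and 87.6% (87.3 to 87.9) of isolated DMSO peaks. For BRG1 the shares within 100 kb were 59.3% (58.1 to 60.5) of isolated ACBI peaks, 70.9% of all ACBI peaks and 66.0% (65.5 to 66.4) of isolated DMSO peaks. For H3K4me3 they were 77.6% (76.5 to 78.6) of isolated ACBI peaks, 83.9% of all ACBI peaks and 75.2% (74.8 to 75.6) of isolated DMSO peaks.

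The 65 isolated peaks that did overlap RUNX1, BRG1 or H3K4me3 had a median width of 346 bp. They were the more remote members: 42 of the 65 (64.6%, 51.8 to 76.1) lay more than 5 kb from DMSO H3K27ac, against 33.3% (32.2 to 34.5) of all isolated peaks. The share that overlapped at least 1 of the 3 lists was 0.525% (0.333 to 0.787) for gaps of 1 to 5 kb. It was 6.01% (3.04 to 10.5), or 11 of 183 peaks, for gaps over 50 kb. In isolated DMSO peaks the corresponding shares were 3.51% (3.25 to 3.78) and 19.4% (18.3 to 20.6), so the wider gap had the higher share in both directions.

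The widest of the 65, at chr4:95986332-95987668 (1337 bp), overlapped RUNX1 and lay 1321 bp from a DMSO peak of 4064 bp that was covered in ACBI. The second, at chr2:44843042-44844272 (1231 bp), overlapped BRG1 and lay 57228 bp from DMSO H3K27ac and 253202 bp from any other ACBI peak. The third, at chr10:103662587-103663671 (1085 bp), overlapped RUNX1 and belongs to the group of 7 on that chromosome. The others, at chr1:33337729-33338812 (1084 bp) and chr21:24163625-24164694 (1070 bp), overlapped RUNX1 as well. RUNX1 and BRG1 were both present at 8 isolated peaks, and all 3 marks at 2.

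The most remote members were small. The 10 isolated peaks on the autosomes and X farthest from DMSO H3K27ac lay 841987 to 2376093 bp from it and measured 167 to 447 bp. The farthest, at chr3:78097863-78098074 (212 bp), was 2360841 bp from any other ACBI peak, and the nearest peak of any of the 3 other targets, a BRG1 peak, was 2310711 bp away. Of these lone sites, 2 carried factor peaks in the libraries with no treatment label. The peak at chr14:42218700-42218903 (204 bp), 2107687 bp from DMSO H3K27ac, overlapped BRG1, and the one at chr3:95425161-95425480 (320 bp), 1596597 bp from it, overlapped both BRG1 and RUNX1. No other member of these 10 overlapped a peak of the 3 lists.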

How the data were processed

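H3K27ac (ACBI-1 and DMSO), RUNX1, BRG1 and H3K4me3 peak lists of DND-41 cells were used, grouped by the target and treatment in the titles, with 1 library per group analysed. The titles of both H3K27ac libraries end in 2, taken here as a replicate number. The 4 control libraries were not analysed here. The lists are positions (chromosome, start, end, name) as deposited by the authors, with no score and no read counts. Per the submitters' processing notes, the build is hg19, and MACS2 and SEACR were used. Both H3K27ac lists hold broad peaks called by cutruntools at a q-value under 0.01, and RUNX1 peaks came from MACS2, per the file headers. The sources used here do not state pooling, controls for calling or the thresholds of the other lists. Peaks of 1 H3K27ac list are never closer than 658 bp (ACBI) or 633 bp (DMSO).

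A gap is the number of bases between peaks, and an overlap needs 1 bp. Gaps were computed in Python 3.11.15 (numpy 2.4.6, pandas 2.3.3, scipy 1.17.1, matplotlib 3.10.9), tested on simulated peaks, and checked against bedtools 2.31.1 for 20 ordered pairs of lists, with 0 of 734536 peaks differing. Depth is unknown, so its limit on precision cannot be given. Sites named are the 10 widest, the 10 farthest from DMSO, the 5 groups with the most members, the 5 widest on another target and those nearest the 1 kb limit, of which 2 on each side are printed. Members, lists and rules were chosen with earlier results of these data known. Gene lists, sequence composition and motifs were not examined, since the reference used here is GRCh38. Alternatives changed the gap, the minimum width, the merging of peaks, the window, the sequences included and the expectation per chromosome.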

Additional observations from a re-analysis of the deposited data

How the results depend on the processing

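No paired analysis was possible because each group has 1 library. Of 65 alternative values, 24 lay inside the 95% interval of the value in the text and 41 outside it. Results are given in the order share of ACBI peaks isolated, median width, share with another isolated peak within 10 kb, median gap to DMSO, shares within 10 kb of RUNX1, BRG1 and H3K4me3, and highest ratio of a chromosome. With no overlap as the only condition they were 21.4% (share), 43.2% (grouped), 1339 bp (gap), 21.1%, 11.0% and 20.9% (RUNX1, BRG1, H3K4me3) and 1.31 (chromosome 4). With a gap over 5 kb they were 4.13%, 340 bp, 19.9%, 10072 bp, 8.17%, 3.74%, 9.36% and 2.26 (chromosome 4). With ACBI peaks of at least 300 bp the share was 9.16%, the width 557 bp, the grouped share 24.2%, the gap 2895 bp and the H3K4me3 share 18.9%. With ACBI peaks closer than 1 kb merged, the share was 13.4%, the grouped share 28.1% and the gap 3214 bp. A window of 5 kb gave 21.1% (grouped), 7.60% (RUNX1), 3.24% (BRG1) and 8.48% (H3K4me3), and one of 50 kb gave 65.1%, 61.9%, 38.9% and 60.1% in the same order. Expectation by length gave 2.04 (chromosome 20), and expectation from DMSO H3K27ac peaks gave 1.52 (chromosome 4), inside the interval. The next 2 settings were chosen after seeing the data. Without the 2 bins of 5 Mb with the highest share isolated, the chromosome ratio was 1.37 (chromosome 4). With only the 52967 widest DMSO peaks, the values were 22.9%, 410 bp, 45.3%, 4738 bp, 19.9%, 9.94%, 20.1% and 1.36 (chromosome 4). The autosomes and X alone moved none of the 7 values computed for them. Depth and peak height, which the lists do not hold, limit all of these.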
